A study of Mus musculus with 6 samples.

Results

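Glucose is taken up by the transporter GLUT1, trapped by hexokinase, split by the phosphofructokinase and aldolase steps, and carried to pyruvate by pyruvate kinase. Lactate dehydrogenase then interconverts pyruvate and lactate. In aerobic glycolysis much of the pyruvate leaves as lactate although oxygen is present, a habit shared by photoreceptors, which make large amounts of lactate, and by many tumor cells. Most of the steps are served by more than 1 isoenzyme, each encoded by its own gene.

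The 10 genes described here are Slc2a1, Hk1, Hk2, Pfkm, Pfkp, Aldoa, Aldoc, Pkm, Ldha and Ldhb. They were taken by name from a table of 24062 genes, where each has 1 row, and all 10 were among the 16904 genes that had enough counts to be tested. The rule takes genes by name and uses no measured value, but the 10 genes were chosen with earlier results of these data known. The shares of all genes given below are therefore a scale for reading and not a test of the 10 genes as a set.

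RNA was sequenced from whole retinae at postnatal day 21 (P21) of mice labelled C57BL/6 (C57BL/6N by the study's methods), 3 retinae from Rb1/p107 double knockout (DKO) mice and 3 from Rb1/p107/Hells triple knockout (TKO) mice. In both groups the tumor suppressor Rb1 is floxed and deleted by Chx10-Cre, and p107 (gene Rbl1) is deleted in the germline. The TKO mice also carry floxed Hells, which encodes a chromatin remodeling ATPase of the SNF2 family. Chx10-Cre acts in a part of the retinal progenitors and their progeny, so each retina also holds cells that were never recombined. Retinae without these deletions were not analysed here, so every difference below is between DKO and TKO. Both sexes were used in the study, and the labels do not say which animals the 6 retinae came from.

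The counts summed to between 10343907 and 14203098 per library. Values are given as normalized counts, for which each library was brought to a common size with TMM factors (edgeR). Hells itself stood at 395 to 678 normalized counts in the DKO retinae and at 60.8 to 83.4 in the TKO retinae (log2 fold change -2.91, edgeR adjusted p = 0.00359). That is the direction of the labels, but it does not by itself show the deletion. The floxed allele targets an exon by the paper, while the count covers the whole gene. All 8 markers of dividing cells were also lower in TKO (log2 -3.21 to -2.29), and their part in the Hells difference was not tested. Rb1 was counted at 591 ± 23.5 in DKO and 748 ± 66.0 in TKO retinae (SD, n = 3 each) and was itself called higher in TKO (log2 0.34, edgeR adjusted p = 0.0388), although it is deleted in both groups. Rbl1 was counted at 18.6 ± 4.87 and 20.3 ± 7.02. Defining markers of rods such as Gnat1, of bipolar cells such as Prkca and of amacrine cells such as Gad1 and Slc6a9 were counted in every library, as a retina should hold them.

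A pair of retinae lay nearer to the other genotype than the rest of their group did. The third TKO retina had the lowest value of its group for 8 of the 10 genes, and the third DKO retina had the highest value of its group for 9 of the 10. The results are therefore also given without each of them.

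All 10 genes had a higher mean in TKO than in DKO retinae, and 4 of them rose by the test across all genes, namely Hk2, Pkm, Ldha and Hk1. None fell. Over all 16904 genes, 7.35% were called higher and 9.20% lower at the same adjusted p of at most 0.05 (edgeR quasi-likelihood test, Benjamini-Hochberg adjustment). At an unadjusted p below 0.05, 8 of the 10 genes were higher and 0 were lower, against 15.3% and 17.8% of all genes. DESeq2 called 8 higher and 0 lower, against 8.75% and 10.4% of all genes. The median log2 fold change of the 10 genes was 0.52, against -0.011 for all genes tested. For 9 of the 10 genes each TKO retina lay above each DKO retina, a pattern that 18.0% of all genes shared. Only Hk2 also met the study's other cutoffs (log2 fold change of 1 or more in size, mean normalized count of 10 or more), criteria that 1.97% of all genes met in the higher direction. In whole tissue, fewer cells of a type and less RNA per cell cannot be told apart, and this holds for each value below.

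**Figure D1:**
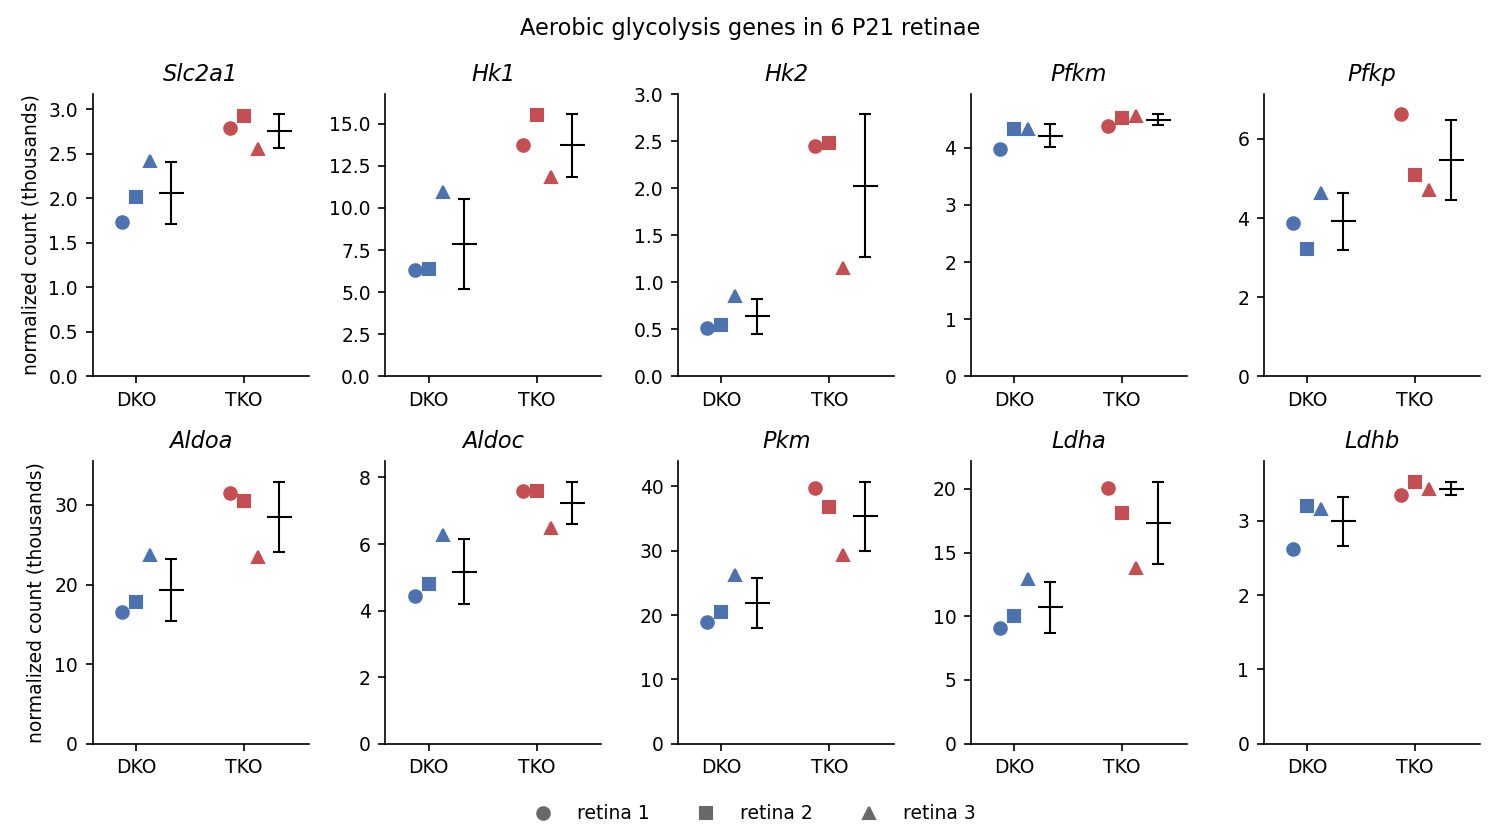
Normalized counts (linear axes from 0, in units of 1000 counts) of the 10 genes in 3 DKO (blue) and 3 TKO (red) retinae, with symbols for retina 1, 2 and 3 of each group and a bar for the mean ± SD. Hk2 separates the genotypes most, from 508 to 856 in DKO and from 1152 to 2485 in TKO retinae, while Pfkm lies between 3980 and 4568 in all 6.

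Slc2a1 encodes GLUT1, the facilitative transporter that brings glucose into retinal cells (chr4:119108711-119137983, plus strand, GRCm38). Its normalized counts were 2787, 2927 and 2556 in the TKO retinae and 1730, 2019 and 2424 in the DKO retinae. The groups did not overlap, but the third DKO retina came within a short distance of the lowest TKO retina. The means were 2757 ± 187 and 2057 ± 348 (SD, n = 3 each), a 1.34-fold difference (log2 0.42, SE 0.125) that did not pass the test (edgeR adjusted p = 0.0535).

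Among the 10 genes, Hk2 and Hk1 had the largest log2 fold changes. Hexokinase phosphorylates glucose and so keeps it in the cell. HK1 is the common form in neural tissue, and HK2, which like HK1 docks at the outer mitochondrial membrane, is the form that photoreceptors and many tumors use. Hk2 (chr6:82725025-82774454, minus strand) had normalized counts of 2448, 2485 and 1152 in the TKO retinae and 508, 545 and 856 in the DKO retinae. The first and second TKO retinae stood well above the rest, the third TKO retina lay between them and the DKO group, and the groups did not overlap. Hk2 rose 3.19-fold (log2 1.67, SE 0.308, edgeR adjusted p = 0.0118), from 636 ± 191 to 2029 ± 759 (SD, n = 3 each). With 1 retina left out in turn its adjusted p ranged from 0.00165 to 0.0580.

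Hk1 (chr10:62268855-62379908, minus strand) had normalized counts of 13765, 15539 and 11849 in the TKO retinae and 6289, 6394 and 10975 in the DKO retinae. The first and second DKO retinae were low and almost equal, while the third retina was close to the lowest TKO retina. Hk1 rose 1.74-fold (log2 0.80, SE 0.222, edgeR adjusted p = 0.0435), from 7886 ± 2676 to 13717 ± 1846 (SD, n = 3 each). Its adjusted p ranged from 0.0031 to 0.152 with 1 retina left out in turn.

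Hkdc1 and Hk3, of the same family, went the opposite way. Hkdc1, which encodes a hexokinase-like protein, had normalized counts of 263, 381 and 447 in the TKO retinae and 909, 795 and 1227 in the DKO retinae, and fell by 1.43 on the log2 scale (SE 0.216, edgeR adjusted p = 0.00752). Hk3, the hexokinase typical of myeloid cells, stood at 10.3, 3.16 and 11.0 against 31.1, 22.8 and 31.9, and fell by 1.81 on the log2 scale (SE 0.439, edgeR adjusted p = 0.0274). The groups did not overlap for either gene. With 1 retina left out in turn Hkdc1 kept its call (adjusted p 0.00339 to 0.0407), whereas Hk3 lost it without the first or the second retina of either group (up to 0.0874). Microglial markers were lower in the same retinae, with 6 of 9 called lower and 0 higher, summed normalized counts of 1720 to 3032 in TKO and 3500 to 5223 in DKO retinae, and no marker at 0. The part of microglia in the values of Hk3 was not tested.

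Set on 1 scale as counts per kilobase of exon, Hk1, Hk2, Hk3 and Hkdc1 differed in their shares between the groups. Hk1 made 77.7%, 78.8% and 83.1% of the summed counts per kilobase of these 4 genes in the TKO retinae and 73.1%, 74.8% and 76.7% in the DKO retinae. Hk2 made 19.7%, 18.0% and 11.5% in TKO and 8.45%, 9.11% and 8.55% in DKO retinae. Hkdc1 made 2.46%, 3.21% and 5.21% in TKO and 17.6%, 15.5% and 14.3% in DKO retinae. Thus Hk1 and Hk2 took a higher share in each TKO than in each DKO retina, and Hkdc1 took a lower one. The shares are parts of 1 total, so a lower share of Hkdc1 by itself raises the others. With the longest transcript as the length, a setting chosen after seeing the data, these directions held in each retina, but the Hk2 shares were lower, at 6.72% to 11.9% in TKO and 5.04% to 5.41% in DKO retinae.

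**Figure D2:**
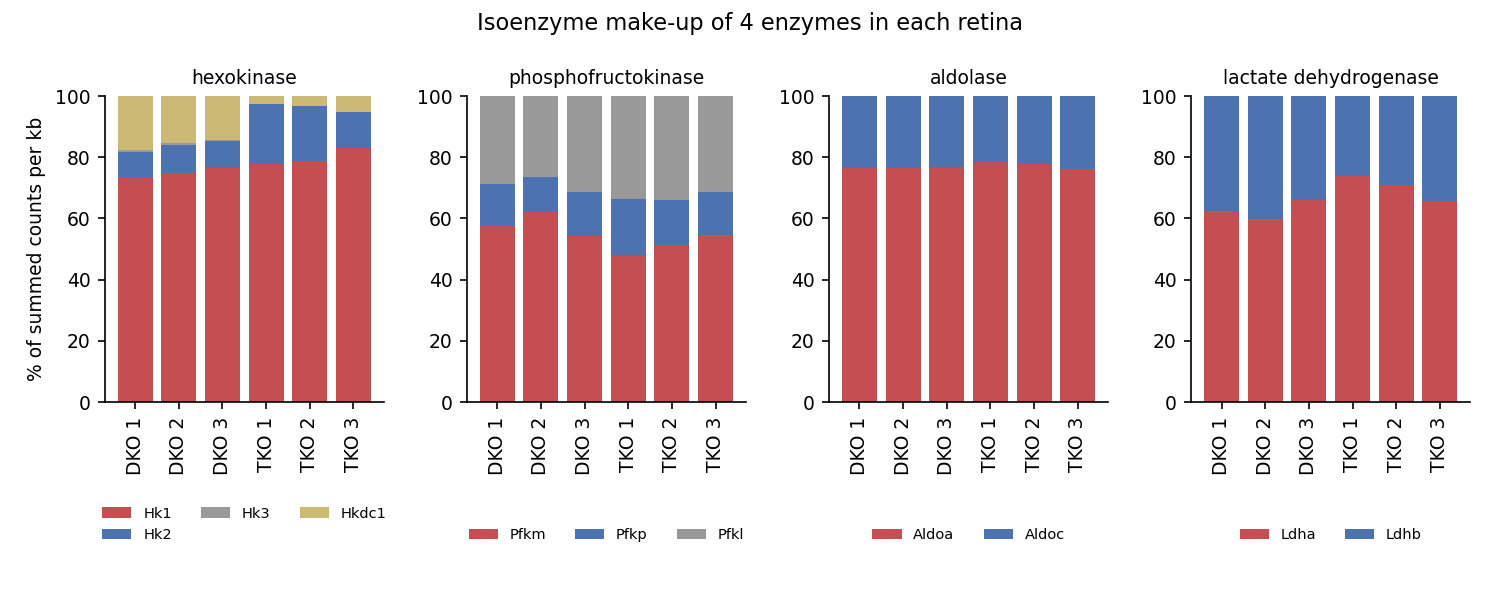
Share of each isoenzyme (% of the summed normalized counts per kilobase of exon of the genes drawn) for hexokinase, phosphofructokinase, aldolase and lactate dehydrogenase, 1 stacked bar per retina. The Hk2 share runs from 8.45% to 9.11% in DKO and from 11.5% to 19.7% in TKO retinae, and the Aldoa and Aldoc shares hardly move.

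The stretches just upstream of the hexokinase genes are shown because the members that rose most lie here. Each is the 250 bases before an annotated start, from RefSeq on GRCm38.p6, 5′ to 3′ on the strand of the gene, with matches to the motifs named further on in capitals. The Hk2 stretch is chr6:82774455-82774704 (minus strand), and the Hk1 stretch, upstream of 1 of the gene's annotated starts, is chr10:62379909-62380158 (minus strand). Neither overlaps an annotated exon.
Hk2: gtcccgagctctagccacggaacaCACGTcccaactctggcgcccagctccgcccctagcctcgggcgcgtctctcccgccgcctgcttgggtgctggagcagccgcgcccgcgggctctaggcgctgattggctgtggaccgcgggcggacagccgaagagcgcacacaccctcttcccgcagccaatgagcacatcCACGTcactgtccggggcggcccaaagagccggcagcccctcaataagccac
Hk1: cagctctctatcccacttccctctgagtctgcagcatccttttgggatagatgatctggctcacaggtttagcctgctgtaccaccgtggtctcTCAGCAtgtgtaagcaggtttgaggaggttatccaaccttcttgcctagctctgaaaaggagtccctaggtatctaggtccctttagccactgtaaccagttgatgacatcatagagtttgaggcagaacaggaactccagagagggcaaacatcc
The Hk2 stretch has a GC content of 69.6% and holds ACGTG on the opposite strand (read as CACGT) at -226 and -52, counted to the first base of the match, with -1 the last base before the start. The Hk1 stretch has a GC content of 49.6% and holds TGCTGA on the opposite strand at -156. The stretch of another Hk1 start, not shown, has a GC content of 62.8%, and which start these retinae use was not tested.

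Phosphofructokinase commits the sugar to glycolysis, and its subunits are encoded by Pfkm (muscle type), Pfkp (platelet type) and Pfkl (liver type). Pfkm (chr15:98092589-98132451, plus strand) was the steadiest of the 10 genes, with 4384, 4523 and 4568 in the TKO and 3980, 4323 and 4335 in the DKO retinae. The TKO retinae lay just above the DKO retinae, by a margin smaller than the spread within DKO. The difference was 1.07-fold (log2 0.09, SE 0.0811, edgeR adjusted p = 0.463), and it turned to log2 -0.064 when libraries were scaled by their total counts only.

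Pfkp (chr13:6579768-6648777, minus strand) had 6619, 5090 and 4710 in the TKO and 3884, 3218 and 4636 in the DKO retinae. The first TKO retina stood above the rest, and the third retinae of both groups were almost equal. The 1.40-fold difference (log2 0.48, SE 0.167) did not pass the test (edgeR adjusted p = 0.0832). Pfkl, which is not 1 of the 10 genes, stood at 5789 ± 498 in TKO and 4218 ± 712 in DKO retinae (log2 0.46, SE 0.133, edgeR adjusted p = 0.0503).

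Aldolase splits fructose 1,6-bisphosphate into its triose products. Aldoa encodes the widespread form, with 31512, 30518 and 23444 in the TKO and 16500, 17779 and 23771 in the DKO retinae. It was the only member whose groups overlapped, since the third DKO retina lay above the third TKO retina. The 1.47-fold difference (log2 0.56, SE 0.175) did not pass the test (edgeR adjusted p = 0.0625). The annotation holds a record named Aldoa at chr7:126800790-126809108 (minus strand), which lies within Fam57b on the opposite strand over 8319 bases. Unstranded counting could not tell reads from that stretch apart, and the strand setting is not given in the sources used here. The upstream stretches of the RefSeq starts of Aldoa lie between 126799179 and 126800697, outside that record. Whether the Aldoa locus of these starts overlaps Fam57b was not tested. Fam57b had 32757 counts over the 6 libraries against 140951 for Aldoa, and rose by 1.27 on the log2 scale (SE 0.237, edgeR adjusted p = 0.0122, up to 0.0586 without the second TKO, the first DKO or the second DKO retina).

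Aldoc (chr11:78322968-78327781, plus strand) encodes the brain form, which in the retina marks glia among other cells. Its normalized counts were 7593, 7601 and 6492 in the TKO and 4443, 4803 and 6269 in the DKO retinae. The groups did not overlap, but only a narrow gap lay between the third retinae. The 1.40-fold difference (log2 0.48, SE 0.142) did not pass the test (edgeR adjusted p = 0.0519).

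Pkm encodes pyruvate kinase, which makes pyruvate and ATP in the last step of glycolysis (chr9:59656368-59679375, plus strand). The gene is spliced into an M1 and an M2 form, which counts over the whole gene do not separate. Its normalized counts were 39806, 36802 and 29374 in the TKO and 18878, 20428 and 26257 in the DKO retinae. All TKO retinae lay above all DKO retinae, and the third retina of each group was nearest to the other genotype. Pkm rose 1.62-fold (log2 0.69, SE 0.167, edgeR adjusted p = 0.0272), from 21854 ± 3891 to 35327 ± 5370 (SD, n = 3 each), and its adjusted p ranged from 0.0102 to 0.112 with 1 retina left out in turn.

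The lactate dehydrogenase subunits are LDHA, the form that favors lactate, and LDHB, the form that favors pyruvate. Ldha (chr7:46841475-46855627, plus strand) had 20072, 18129 and 13802 in the TKO and 9118, 10002 and 12957 in the DKO retinae. The groups did not overlap, and the third retinae of the 2 genotypes were closest to each other. Ldha rose 1.62-fold (log2 0.70, SE 0.178, edgeR adjusted p = 0.0327), from 10692 ± 2011 to 17334 ± 3209 (SD, n = 3 each), with an adjusted p from 0.0106 to 0.123 when 1 retina was left out in turn.

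Ldhb (chr6:142490249-142507957, minus strand) had 3345, 3522 and 3428 in the TKO and 2613, 3198 and 3158 in the DKO retinae. The TKO retinae were tightly grouped and lay just above the second and the third DKO retinae. The 1.15-fold difference (log2 0.20, SE 0.0972) did not pass the test (edgeR adjusted p = 0.192), nor did it pass with any 1 retina left out or with DESeq2 (adjusted p = 0.212).

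The upstream stretches of Ldha and Ldhb are shown as a pair because 1 of the isoenzymes rose and the other did not pass the test. Compared directly, the ratio of Ldha to Ldhb had overlapping groups (exact permutation test, p = 0.2), so a difference between the genes is not established. They are chr7:46845554-46845803 (plus strand), upstream of 1 of 2 RefSeq starts of Ldha, and chr6:142507958-142508207 (minus strand) for Ldhb, from the same source, with the same use of capitals, and outside annotated exons.
Ldha: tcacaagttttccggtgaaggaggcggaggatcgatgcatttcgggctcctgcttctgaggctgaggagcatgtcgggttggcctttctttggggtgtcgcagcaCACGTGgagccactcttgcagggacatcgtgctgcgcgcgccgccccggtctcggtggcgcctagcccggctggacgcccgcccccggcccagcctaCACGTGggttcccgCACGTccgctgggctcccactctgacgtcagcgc
Ldhb: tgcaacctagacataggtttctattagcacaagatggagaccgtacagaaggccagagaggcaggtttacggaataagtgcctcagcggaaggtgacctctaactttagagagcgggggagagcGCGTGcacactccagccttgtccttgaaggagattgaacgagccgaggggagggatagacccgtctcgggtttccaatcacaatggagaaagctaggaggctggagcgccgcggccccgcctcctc
The Ldha stretch holds CACGTG at -145 and -48 and a further ACGTG on the opposite strand at -34. The Ldhb stretch holds GCGTG at -126 and no CACGTG or ACGTG.

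Over all RefSeq starts of the 10 genes there were 19 such stretches, and all 10 genes were matched. Searched on both strands were ACGTG and GCGTG, cores of the hypoxia response element, CACGTG, the E-box bound by MYC-type factors, TTTCGCGC and TTTGGCGC for E2F, TAATCC for the photoreceptor factor CRX and TGCTGA, a part of the site of the rod factor NRL. ACGTG was found for 6 of the 10 genes (Aldoa, Hk2, Ldha, Pfkm, Pkm and Slc2a1), against 18.5% of the 27025 genes in the RefSeq table. GCGTG was found for 7 of the 10 (Aldoc, Hk1, Ldha, Ldhb, Pfkm, Pfkp and Slc2a1), against 30.9%. CACGTG, every copy of which also holds ACGTG, was found for Ldha and Pfkm, against 6.86%. Counted by stretch, ACGTG was in 8 of 19 against 16.6% and GCGTG in 9 of 19 against 28.2% of 32851. TAATCC was found for 4 of the 10 (Aldoc, Ldha, Pfkm and Pfkp) against 7.21%, and TGCTGA for Hk1 alone against 18.0%. Neither E2F motif was in the 19 stretches, and these were found for 0.300% and 0.485% of all genes. Of the 4 genes that rose, Hk2, Pkm and Ldha had ACGTG. Hk1 had no ACGTG but had GCGTG at -196, -15 and -12, upstream of another start than the one shown. Pfkm, which did not pass the test, had both ACGTG and CACGTG. The shares of all genes were not matched to the 10 genes for the number of stretches per gene or for GC content. The 10 genes had 19 stretches, and the 27025 genes had 32851. Some of the stretches overlap, so the same site can be counted more than once by stretch. A match is a run of letters and not a binding site.

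The isoenzyme pairs were compared within each retina, which removes library scaling. The ratio of Hk2 to Hk1 was 0.178, 0.160 and 0.0973 in the TKO and 0.0808, 0.0852 and 0.0780 in the DKO retinae, without overlap. The mean log2 ratio was 0.79 higher in TKO (exact permutation test, two-sided p = 0.1, adjusted 0.267 over 4 pairs). That p is the smallest that 3 against 3 retinae allow. The ratio of Ldha to Ldhb was 6.00, 5.15 and 4.03 against 3.49, 3.13 and 4.10, a log2 difference of 0.49 (exact permutation test, p = 0.2, adjusted 0.267). The ratio of Pfkp to Pfkm was 1.51, 1.13 and 1.03 against 0.976, 0.744 and 1.07, a log2 difference of 0.39 (exact permutation test, p = 0.2, adjusted 0.267). For both pairs the third DKO retina lay above the third TKO retina. The ratio of Aldoc to Aldoa was 0.241, 0.249 and 0.277 against 0.269, 0.270 and 0.264, a log2 difference of -0.069 (exact permutation test, p = 0.4, adjusted 0.4), with overlapping groups.

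Levels could be ordered between genes once counts were divided by the length of the merged exons. In the DKO retinae the order was Aldoa (5216 ± 1046 normalized counts per kilobase), Pkm (4370 ± 778), Ldha (3230 ± 607), Ldhb (1904 ± 208), Aldoc (1585 ± 296), Pfkm (1261 ± 60.4), Hk1 (924 ± 314), Slc2a1 (587 ± 99.4) and Pfkp (292 ± 52.9), all SD with n = 3, followed by Hk2 at 85.1, 91.2 and 143. The ranges over retinae overlapped between the neighbors Aldoa and Pkm, Pkm and Ldha, Ldhb and Aldoc, and Pfkm and Hk1. The TKO order was the same except that Aldoc (2215 ± 196) stood before Ldhb (2186 ± 56.3), again with overlapping ranges, and Hk1 (1608 ± 216) before Pfkm (1345 ± 28.6), without overlap. Hk2 was last in both groups, at 340 ± 127 per kilobase in TKO retinae, where its range overlapped that of Pfkp (408 ± 75.4). Dividing by the longest transcript in place of the merged exons moved Hk1 from rank 6 to rank 4 in TKO and from rank 7 to rank 6 in DKO retinae. It also moved Aldoc from rank 4 to rank 6 in TKO retinae, behind Ldhb (2595 against 2631), and raised the levels themselves, for example from 7680 to 18394 for Aldoa, from 7064 to 14526 for Pkm and from 1608 to 3206 for Hk1 in TKO retinae. Exons were merged by gene name, so the Aldoa length may hold exons of more than 1 annotated record, which would lower its level and share per kilobase.

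**Figure D3:**
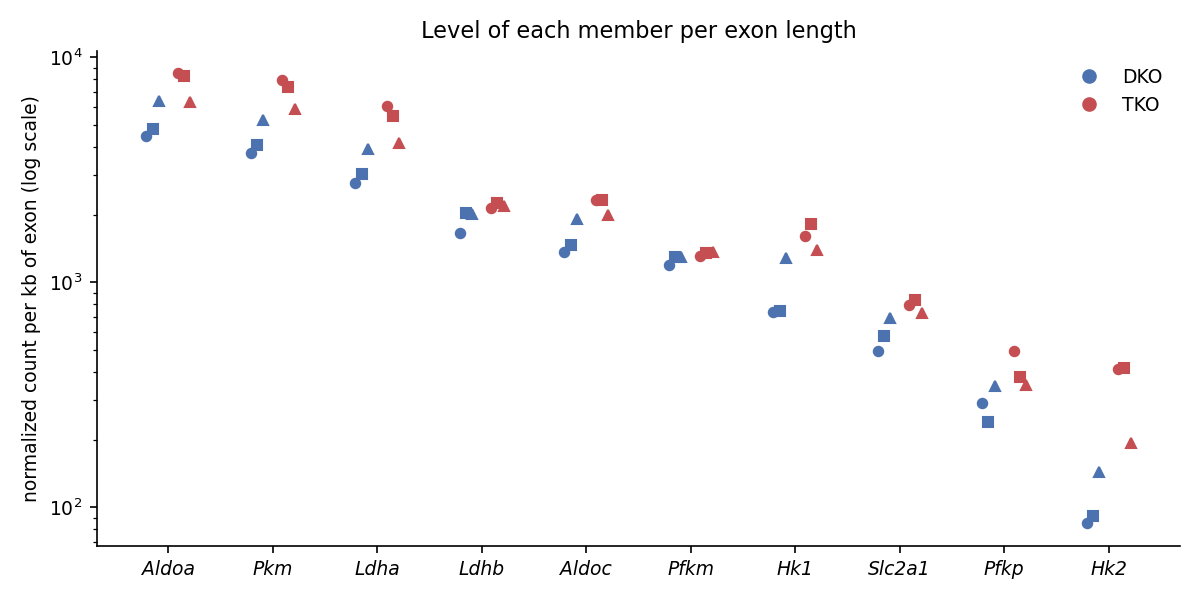
Normalized counts per kilobase of merged exon (log axis) of the 10 genes, ordered by their DKO mean, with 1 point per DKO (blue) and TKO (red) retina (circle, square and triangle for retina 1, 2 and 3). Aldoa is highest and Hk2 lowest in both groups, from 85.1 to 143 per kilobase in DKO and from 193 to 416 in TKO retinae for Hk2.

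The 10 genes together took 0.955%, 0.937% and 0.799% of all counts in the TKO retinae and 0.571%, 0.617% and 0.780% in the DKO retinae. Rod photoreceptor markers moved with them. All 13 rod markers, Gnat1 among them, rose by 1.58 to 2.09 on the log2 scale, and their sum took 5.98%, 5.26% and 3.24% of counts in TKO and 1.21%, 1.19% and 2.17% in DKO retinae. The third retina of each group was again the nearest to the other group. Per 1000 normalized counts of the rod markers, Hk2 stood at 2.95, 3.49 and 2.81 in TKO and 3.53, 3.87 and 3.22 in DKO retinae, with overlapping groups. The other 9 genes were lower per rod marker count in each TKO than in each DKO retina, for example Hk1 at 16.6, 21.8 and 28.8 against 43.7, 45.5 and 41.3. The part of the rods in the differences of the 10 genes was not tested.

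**Figure D4:**
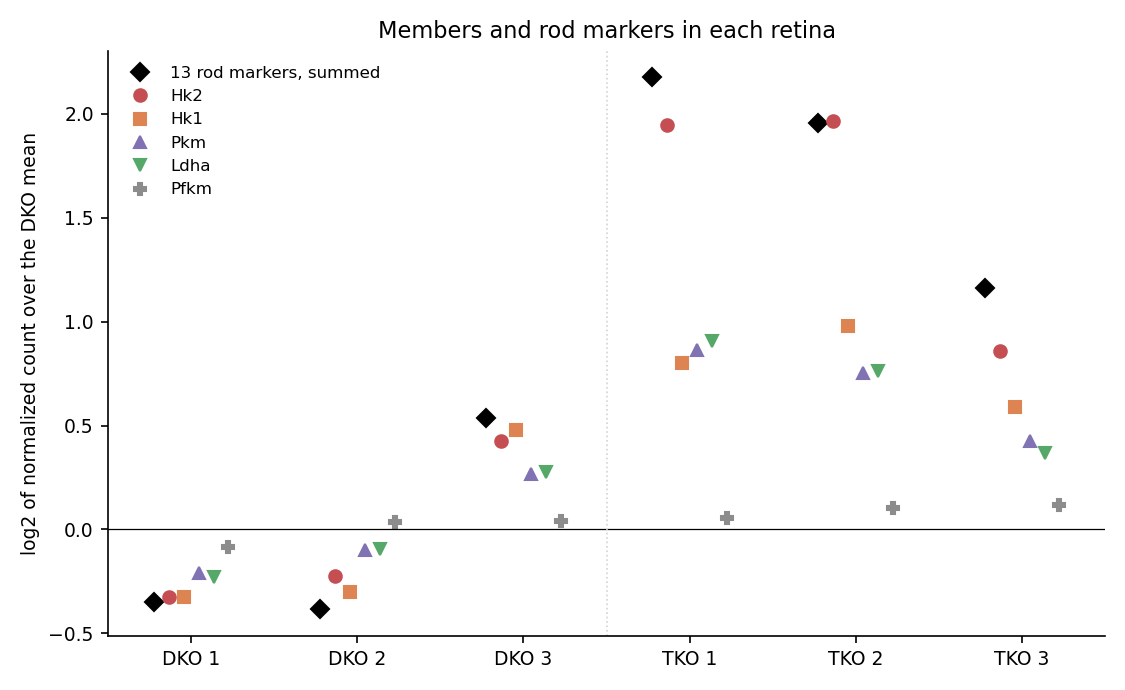
Log2 of the normalized count over the mean of the 3 DKO retinae, for the summed 13 rod markers (black) and for Hk2, Hk1, Pkm, Ldha and Pfkm, in each of the 6 retinae. Hk2 lies closest to the rod markers in the 3 TKO retinae and Hk1 in the 3 DKO retinae, while Pfkm stays near 0.

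Markers of other cell types were also compared, and only some of the lists differed between the groups. Of all genes, 7.35% were called higher and 9.20% lower by edgeR. Markers of dividing cells, such as Top2a and Mki67, were called lower for 8 of 8, with sums of 508 to 2041 in TKO and 5018 to 10825 in DKO retinae. Of the Muller glia markers 4 of 8 were called higher and 1 lower, with sums of 61640 to 66689 against 42925 to 44404. Of the most abundant of these, Glul was called higher and Dkk3 was not called. Of the cone markers 2 of 8 were higher (sums 15309 to 26632 against 10464 to 18674), and of the most abundant Opn1sw was called and Gnb3 was not. Of the bipolar markers 2 of 9 were higher (17360 to 23246 against 15736 to 18299). Amacrine markers gave 0 of 6 by edgeR, with 2 lower at an unadjusted p below 0.05 and 2 lower by DESeq2 (sums 17677 to 21423 against 19448 to 21926). Endothelial markers gave 1 of 8 higher (5412 to 6815 against 5543 to 7148), with neither of the most abundant, Kdr and Flt1, called. Lens markers, Cryaa and Cryba1 among them, were higher for 4 of 8, with sums of 519 to 3470 against 105 to 109 and the highest in the second TKO retina. Of the pigment epithelium markers 1 of 8 was higher (708 to 2770 against 193 to 1115), with neither of the most abundant, Ttr and Rgr, called. No marker of any list was at 0 in all 6 libraries. The part of these cells in the values of the 10 genes was not tested.

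Around the 10 genes, 5 lists of pathway genes gave 4 genes higher and 2 lower of 41 tested by edgeR, near the shares of all genes (7.35% and 9.20%). DESeq2 called 10 higher and 2 lower, against 8.75% and 10.4% of all genes. The calls below are those of single genes, and no list was tested as a set. The other glycolytic genes had a median log2 fold change of 0.31, but 0 of 15 rose by edgeR, whereas 7 were higher at an unadjusted p below 0.05 and 6 by DESeq2. Their 2 calls were the falls of Hkdc1 and Hk3. The most abundant of them were Gapdh (37765 ± 4604 in TKO and 30549 ± 4418 in DKO retinae, log2 0.31, edgeR adjusted p = 0.190), Tpi1 (log2 0.29, edgeR adjusted p = 0.185) and Gpi1 (log2 0.37, edgeR adjusted p = 0.0912), the enzymes of glyceraldehyde phosphate oxidation, triose isomerization and glucose phosphate isomerization.

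Fructose 2,6-bisphosphate is the strongest activator of phosphofructokinase, and 2 of the 5 genes that set its level rose. Pfkfb2, a bifunctional kinase and phosphatase that makes and removes it, had 7000, 5042 and 3625 normalized counts in the TKO and 2093, 1630 and 2286 in the DKO retinae. The groups were far apart, and Pfkfb2 rose 2.61-fold (log2 1.38, SE 0.230, edgeR adjusted p = 0.00914). Tigar, listed under its older name 9630033F20Rik and encoding a fructose bisphosphatase, had 822, 729 and 630 against 392, 405 and 511, and rose 1.67-fold (log2 0.74, SE 0.138, edgeR adjusted p = 0.0122). With 1 retina left out in turn Pfkfb2 kept its call (adjusted p 0.00195 to 0.0461), and the call of Tigar was lost without the second TKO, the first DKO or the second DKO retina (up to 0.0586). Pfkfb3, the isoenzyme with the highest kinase activity, stood at 821 ± 47.9 in TKO and 923 ± 36.8 in DKO retinae (log2 -0.17, edgeR adjusted p = 0.179).

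Of the 7 carriers of lactate and pyruvate, 1 rose. Slc16a1, which encodes the monocarboxylate transporter MCT1, had 2305, 1941 and 1185 in the TKO and 895, 919 and 1037 in the DKO retinae. The DKO values were close together, the TKO values spread widely above them, and the rise was 1.91-fold (log2 0.93, SE 0.211, edgeR adjusted p = 0.0222). The call was lost without the first or the second retina of either group (adjusted p up to 0.0866). Its chaperone gene Bsg stood at 6882 ± 591 and 5791 ± 859 (log2 0.25, edgeR adjusted p = 0.207), the transporter gene Slc16a8 at log2 0.90 (edgeR adjusted p = 0.154), and the mitochondrial pyruvate carrier subunit Mpc1 at log2 0.01 (edgeR adjusted p = 0.936).

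Neither the pyruvate dehydrogenase complex nor its kinases, which decide whether pyruvate enters the mitochondrial cycle, gave a call by edgeR or DESeq2, and 0 of 7 passed at an unadjusted p below 0.05. The values were log2 0.12 for Pdha1, 0.16 for Pdhb, 0.16 for Dlat and 0.13 for Pdk2. Of 7 genes of the pentose phosphate pathway, which branches off after hexokinase, G6pdx, the gene of its first enzyme, rose 1.26-fold (log2 0.34, SE 0.0822, edgeR adjusted p = 0.0279), a call also lost without the first or the second retina of either group (up to 0.0994). Tkt (log2 0.11, edgeR adjusted p = 0.613), Taldo1 (log2 0.06, edgeR adjusted p = 0.700), Rpe (log2 0.24, edgeR adjusted p = 0.124) and Rpia (log2 -0.33, edgeR adjusted p = 0.160) did not pass.

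**Figure D5:**
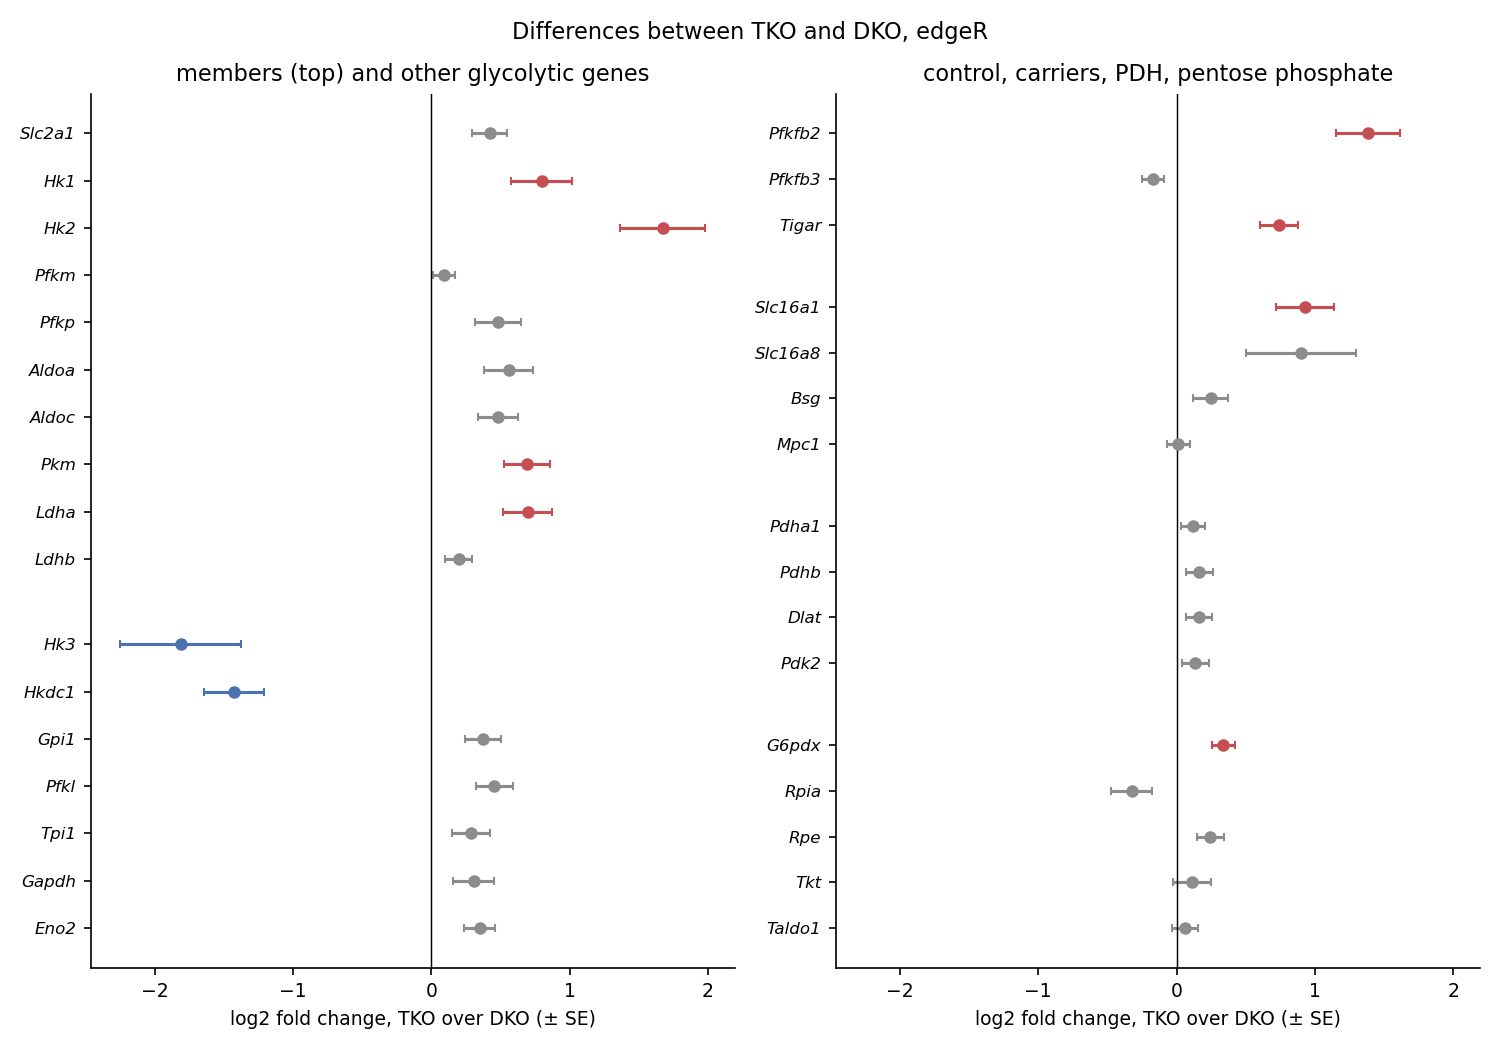
Log2 fold change of TKO over DKO with its SE from edgeR for the 10 genes (top left) and the pathway genes named in the text, of glycolysis (bottom left) and of fructose 2,6-bisphosphate control, lactate and pyruvate carriers, pyruvate dehydrogenase (PDH) and the pentose phosphate pathway (right, top to bottom). Red and blue points are genes called higher and lower at an adjusted p of at most 0.05, and gray points did not pass, so that Hk2 (1.67) and Pfkfb2 (1.38) stand farthest to the right and Hk3 (-1.81) and Hkdc1 (-1.43) farthest to the left.

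The calls depended on which retina entered the test. Without the third TKO retina, or without the third DKO retina, 8 of the 10 genes were called higher, all but Pfkm and Ldhb, against 9.64% and 8.90% of all genes. The third retinae lay nearest to the other genotype for these same genes, so the higher count without either is no added support. Without the first TKO retina only Hk2 was called, against 3.23% of all genes. Without the second TKO, the first DKO or the second DKO retina 0 of the 10 genes were called by edgeR, where only 1.84%, 1.87% and 1.28% of all genes were called higher. At an unadjusted p below 0.05, 8, 6 and 7 of the 10 were higher in these tests, against 11.7%, 12.5% and 10.6% of all genes. All 10 log2 fold changes stayed above 0 in each of these 6 tests.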

How the data were processed

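The authors made paired-end, stranded mRNA libraries from P21 retinae. The paper's methods name STAR alignment to GRCm38 with Ensembl genes, multiple alignments allowed, and HTSeq counting, whereas the submitters' processing notes name TopHat2, featureCounts, mm10 and GRCm38. The strand setting is not given in the sources used here, so overlapping genes and near-identical copies (pseudogenes of Aldoa, Ldha or Pkm) are uncertain. The deposited values are raw counts per gene, 1 column per retina.

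Genes with a sum under 10 were removed. The main test was edgeR 4.0.16 (R 4.3.3, TMM, quasi-likelihood F test) with Benjamini-Hochberg adjustment over 16904 genes. Its code was checked on simulated counts with 1 fixed dispersion and changes larger than those of the 10 genes. That check does not measure how reliable their calls are. Alternatives were DESeq2 1.42.0 (the paper used an earlier version), other scalings, filters and thresholds, a replicate block and the omission of each retina. SEs were obtained from the log2 fold change and the F statistic (its size over the root of F). No pair of replicates agreed within sampling noise (8.61 to 25.3 for chi-square over its degrees of freedom). That they are separate animals is not stated, so p-values measure the spread between these retinae. Ratios used exact permutation tests (scipy 1.17.1). Gene positions and exon lengths came from GENCODE (GRCm38), upstream sequences from RefSeq.

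The 10 genes and all lists were chosen with earlier results of these data known. Named were the 10 genes, Hells, Rb1 and Rbl1, in each pathway list the 3 genes with the largest mean and the 3 with the smallest p, and the 2 most abundant genes of each marker list. Fam57b, Senp1, Eno1, Eno1b and Eno2 were added after their values were seen. A few genes that this rule picks were left out. The authors' tumor and chromatin data were not analysed here.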

Additional observations from a re-analysis of the deposited data

How the results depend on the processing

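With 4 of the 10 genes called by edgeR, DESeq2 called 8, an adjusted p of at most 0.1 gave 8 and of at most 0.01 gave 0, and leaving out 1 retina gave 0 to 8. The study's criteria (1 gene) gave 0 at an adjusted p of at most 0.01 and 0 to 2 with 1 retina left out. Of the pathway genes, 6 were called, 4 higher and 2 lower. DESeq2 called 12 (10 higher), an adjusted p of at most 0.1 gave 12 (10 higher), one of at most 0.01 gave 2 (1 higher, 1 lower), 1 retina left out gave 2 to 13 (1 to 11 higher, 1 to 3 lower), and a minimum of 10 counts in every library gave 1 lower. Pfkm turned to -0.064 (edgeR adjusted p = 0.651) under scaling by totals alone, where the median over all genes was -0.17 (778 higher and 2610 lower against 1243 and 1556), that of the 10 genes was 0.36, and 3 of them were called. The causes were not tested. With the replicate number as a block, 0 of the 10 genes were called by edgeR (8 higher at an unadjusted p below 0.05), where only 24 genes were called higher and 82 lower over the whole table, 0 by the study's criteria, and 1 pathway gene (0 higher, 1 lower). The numbers do not pair the retinae, as the correlations of same-numbered deviations were 0.052, -0.045 and -0.163. Over 150 alternative values of the 10 genes, 109 kept direction and side of the threshold, 21 lost the call, 19 gained it and 1 reversed. The log2 isoenzyme ratios kept their sign in all alternatives. The lowest normalized count of the 10 genes was 508 (Hk2), so no result on them rests on a count near 0.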

Other observations

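Enolase 1, the main enolase outside neurons and muscle, was listed with 2 counts over all 6 libraries (0 in the 3 TKO retinae), too few to test. The intronless copy Eno1b was counted at 592 ± 47.9 in the 3 TKO and 444 ± 61.4 in the 3 DKO retinae (SD) and rose by 0.42 on the log2 scale (SE 0.120, edgeR adjusted p = 0.0488). Whether reads of 1 were counted for the other was not tested, so no difference is given for Eno1. The neuronal enolase Eno2 stood at 11643 ± 986 and 9124 ± 836 (log2 0.35, SE 0.112, edgeR adjusted p = 0.0662).

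Senp1, which encodes a SUMO protease and shares 1156 bases with Pfkm on the opposite strand, fell by 0.51 on the log2 scale (SE 0.108, edgeR adjusted p = 0.0182), with 541, 538 and 566 normalized counts in the TKO and 862, 811 and 665 in the DKO retinae, while Pfkm did not pass the test. The call of Senp1 was lost without the first or the second retina of either group (adjusted p up to 0.0782).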
